A study of Mus musculus with 2 samples.

Results

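The 39 Hox genes of the mouse and the genes of their DNA-binding partners, 4 Pbx and 3 Meis genes, were described in fetal intestine. Members were taken by symbol among the protein-coding genes, which gave 46 of 21474: 11 Hoxa, 10 Hoxb, 9 Hoxc, 9 Hoxd, 4 Pbx and 3 Meis genes. The libraries were 2 total RNA libraries of 1 group, replicate 1 and replicate 2, from intestine of healthy B6NCrl embryos, with no treatment or mutation named at embryonic day 16.5. Each was a pool of males and females. Replicate 2 pooled 41 embryos; how many went into replicate 1 the sources used here do not say. The pools were separate biosamples under 1 donor identifier, so the spread between them is that of 2 pools and may be partly technical. There was no second group, and with 2 libraries the smallest two-sided exact p is 0.5, so no p-value was computed. Expected counts over genes were 41279206 and 40758084, of which Hox genes held 8217.66 and 7424.01 and the cofactor genes 12676.9 and 11602.1. Levels are in TPM, abundance after division by transcript length and scaling to equal library totals, and a gene was called detected at 1 TPM or more in both libraries.

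Hox genes encode homeodomain transcription factors that tell cells where they lie along the axis from head to tail. They stand in 4 clusters, and genes at the 3′ end of a cluster, with low paralog numbers, are switched on earlier and nearer the head than those at its 5′ end. PBX and MEIS proteins are homeodomain proteins of the TALE class that bind DNA together with Hox proteins and sharpen their choice of sites. In the gut, Hox genes act mostly in the mesoderm and enteric nervous system, and the 5′ genes mark the hindgut. Whole intestine mixes these tissues, so fewer cells of a type and less RNA per cell cannot be told apart. Detected were 5 of 5 markers of intestinal epithelium, 5 of 5 of smooth muscle, 6 of 6 of gut mesenchyme and 5 of 5 of enteric neurons and crest. The background was 62.0% of protein-coding genes, and detection does not give the share of each tissue.

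Alternative starts of Hoxa10 and Hoxd11 are shown first, because the transcripts counted for these genes differed in start and coding type. The RefSeq promoter table for GRCm38.p6 (mm10) held 29 windows for 27 of the 46 members, each from 250 bases before to 50 bases after a start. Both genes have 2 windows. Hoxa10-201 starts in the upstream window and Hoxa10-202, the other long coding transcript, in the downstream one. Hoxd11-201, which is annotated as non-coding, starts in its upstream window and the coding Hoxd11-202 in the downstream one. Windows are written 5′ to 3′ on the gene's strand, and capitals mark the motifs searched on both strands. These were TGACAG, the core read by MEIS proteins, TGATTNAT, a joint site of PBX and Hox proteins, and the TATA box, searched as its common spelling TATAAA. For CDX proteins the search took TTTATGG. It also took a second form known for these factors, TTTATTG.
Hoxa10 upstream window, chr6:52240805-52241104, minus strand: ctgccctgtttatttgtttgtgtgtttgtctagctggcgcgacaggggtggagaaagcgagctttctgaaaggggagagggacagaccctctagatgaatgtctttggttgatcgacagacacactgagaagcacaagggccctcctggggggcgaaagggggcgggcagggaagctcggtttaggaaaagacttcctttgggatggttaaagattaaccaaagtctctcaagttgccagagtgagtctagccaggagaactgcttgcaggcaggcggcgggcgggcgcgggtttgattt
Hoxa10 downstream window, chr6:52234890-52235189, minus strand: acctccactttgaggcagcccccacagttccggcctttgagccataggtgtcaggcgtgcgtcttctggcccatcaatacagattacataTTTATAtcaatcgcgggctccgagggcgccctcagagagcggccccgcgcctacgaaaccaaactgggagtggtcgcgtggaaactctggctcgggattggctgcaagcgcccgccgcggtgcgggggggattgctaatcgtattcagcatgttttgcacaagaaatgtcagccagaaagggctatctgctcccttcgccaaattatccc
Hoxd11 upstream window, chr2:74679308-74679607, plus strand: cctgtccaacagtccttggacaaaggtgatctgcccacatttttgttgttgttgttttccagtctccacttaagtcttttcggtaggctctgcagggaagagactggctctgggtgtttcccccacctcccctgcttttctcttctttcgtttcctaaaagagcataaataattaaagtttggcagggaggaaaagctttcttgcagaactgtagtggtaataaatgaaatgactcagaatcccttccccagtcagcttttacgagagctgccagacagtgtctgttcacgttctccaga
Hoxd11 downstream window, chr2:74682073-74682372, plus strand: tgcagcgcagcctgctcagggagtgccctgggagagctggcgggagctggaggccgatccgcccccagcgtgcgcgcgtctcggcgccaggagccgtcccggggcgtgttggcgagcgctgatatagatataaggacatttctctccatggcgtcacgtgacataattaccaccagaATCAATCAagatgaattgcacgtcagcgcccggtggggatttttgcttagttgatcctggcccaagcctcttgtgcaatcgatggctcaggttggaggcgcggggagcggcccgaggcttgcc

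Of these windows, the downstream one of Hoxa10 holds the letters TATAAA, but on the strand opposite to the gene and far before the start. It is therefore not shown to have a working TATA box. The downstream window of Hoxd11 holds the letters of a joint PBX and Hox site. The 2 others hold none of these letters. A match is a string of letters and not a measured site. Over the 29 member windows, the joint site was found in 2 (6.90%, Hoxa2 and Hoxd11) against 3.22% of 32851 windows in the table, and the MEIS core in 2 (6.90%, Hoxa2 and Hoxa3) against 19.2%. The CDX letters were found in 4 (13.8%, Hoxb8, Hoxd4, Meis2 and Pbx4) against 7.20%. The TATA letters, on either strand and anywhere in the window, were found in 5 (17.2%) against 13.6%. Member windows had a median of 58.3% G and C against 52.7% over the table, and a median ratio of observed to expected CpG of 0.666 against 0.384. The upstream window of Hoxd11 had 45.7% G and C and a CpG ratio of 0.257, and the downstream window 62.0% and 0.875.

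The clusters also carry miRNA genes, shown here because they lie among the members and share seeds across clusters. Mature sequences are from RefSeq, with the seed (bases 2 to 8) in capitals. The miR-196a gene has copies between Hoxb13 and Hoxb9 and between Hoxc10 and Hoxc9, the latter within the annotated span of Hoxc5. miR-196b lies within that of Hoxa9, miR-10a lies between Hoxb5 and Hoxb4, and miR-10b lies within the annotated spans of Hoxd3 and Hoxd4.
miR-196a-5p: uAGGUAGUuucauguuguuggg
miR-196b-5p: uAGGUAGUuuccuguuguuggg
miR-10a-5p: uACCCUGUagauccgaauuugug
miR-10b-5p: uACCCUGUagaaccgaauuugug
Hoxb8 site for miR-196a, chr11:96284888-96284909, plus strand: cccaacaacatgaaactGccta

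In the Hoxb8 site, which lies in the 3′ UTR of Hoxb8-201, 21 of 22 bases are complementary to miR-196a-5p and the capital marks the base that is not. The letters complementary to the shared seed of miR-196 stand in the 3′ UTR of 7 of 39 Hox genes (17.9%), in the most abundant coding transcript of each, against 4.56% of 21361 genes. They are Hoxa4, Hoxa5, Hoxa9, Hoxb1, Hoxb6, Hoxb7 and Hoxc8, the last with 2 copies. Pbx3 holds them too. For the miR-10 seed the shares were 4 of 39 (10.3%) and 9.42%. Median 3′ UTR length was 863 bases in Hox genes and 614 bases in all, so Hox genes offered more letters to match. The part of length in these shares was not tested. Mature miRNAs are too short for libraries of RNA over 200 nt, and the hairpin genes were too short for a level, so no miRNA was measured.

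All 7 cofactor genes and 24 of 39 Hox genes were detected, against a background of 62.0% of protein-coding genes, which the Hox share lay near. Summed Hox levels were 154.18 and 144.81 TPM, and summed cofactor levels 154.81 and 144.20 TPM, a ratio of 1.00 and 0.996. The equality belongs to TPM: in counts not divided by length the cofactors stood above Hox by log2 0.63, and in TPM of protein-coding transcripts their log2 ratio to Hox was -0.36. Of the Hox sum, central paralogs (4 to 8) took 61.9% ± 1.57, paralogs 1 to 3 took 21.7% ± 0.874, and paralogs 9 to 13 took 16.3% ± 2.44 (SD, n = 2).

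**Figure D1:**
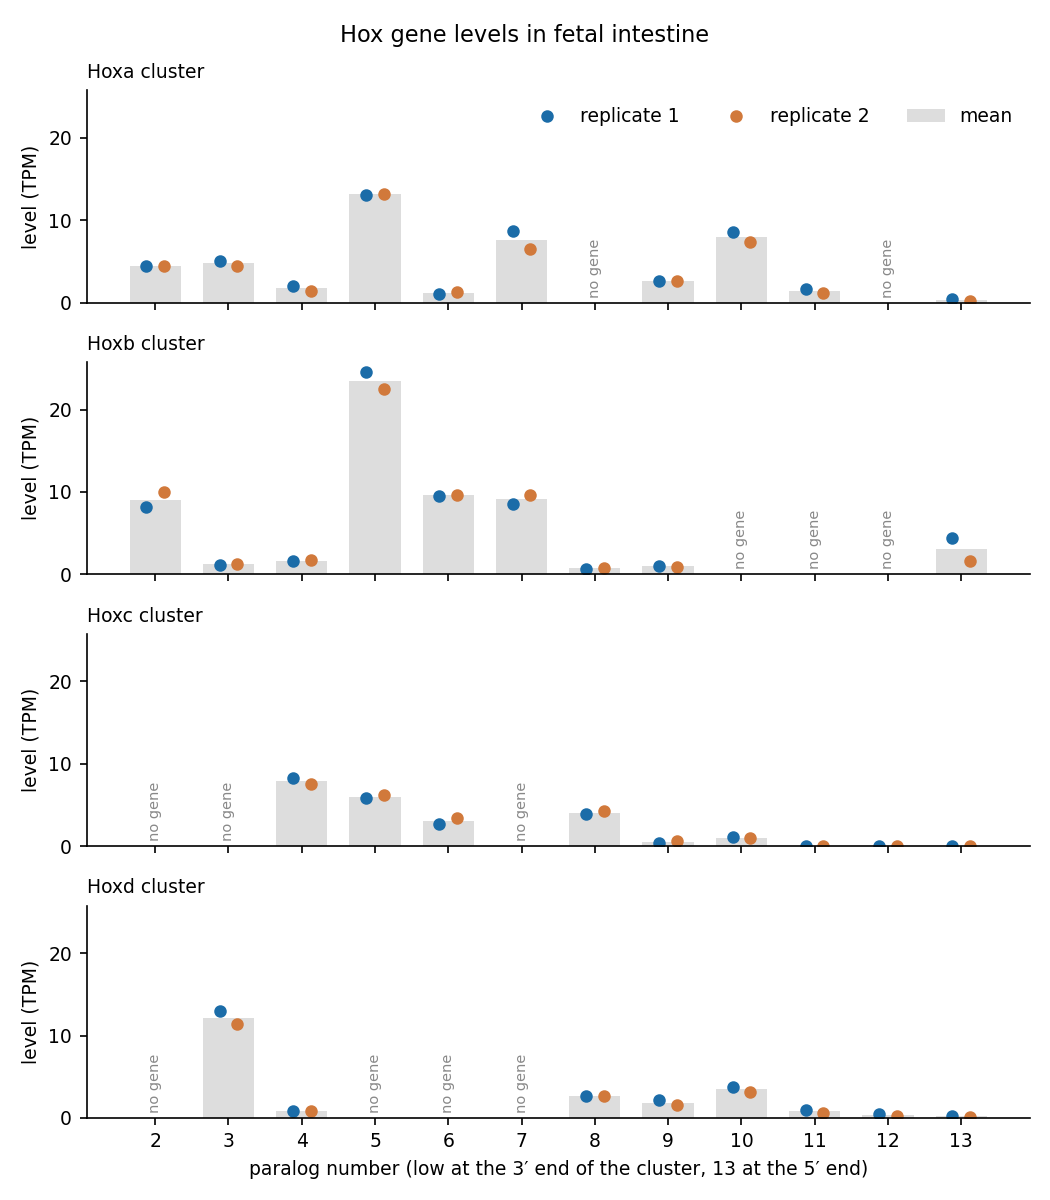
Level of Hox genes in TPM (vertical axis, the same in all panels) against its paralog number (horizontal axis), with 1 panel per cluster, for the 36 genes of paralogs 2 to 13. Grey bars are means of the 2 libraries and points are the libraries. Hoxb5 is highest at a mean of 23.5 TPM, and levels in the Hoxc panel fall from Hoxc4 to the 5′ end except at Hoxc8 and Hoxc10, each higher than the gene before it.

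Anterior Hox genes, paralogs 1 to 3, which pattern the hindbrain and pharynx, were unequal. Hoxd1 was low at 0.1 and 0.08 TPM, and Hoxb1 had 1 and 0 counts. Group 2 was present in both of its genes, with Hoxb2 at 8.21 and 9.94 TPM and Hoxa2 at 4.47 and 4.45 TPM. Hoxb2 exceeded Hoxa2 in both libraries, by log2 1.00 ± 0.20 (SD, n = 2, on log2 of TPM + 0.1, as for all pairs here). In group 3, Hoxd3 stood at 12.9 and 11.4 TPM, Hoxa3 at 5.06 and 4.43 TPM and Hoxb3 at 1.18 and 1.31 TPM. Hoxd3 stood above Hoxb3 by log2 3.19 ± 0.22. Most of the Hoxd3 level was placed on a non-coding transcript, and in TPM of protein-coding transcripts the distance was log2 1.53.

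Central Hox genes, paralogs 4 to 8, held the top of the ranking. In group 4, Hoxc4 stood at 8.25 and 7.49 TPM while Hoxa4 was at 2.06 and 1.42 TPM, Hoxb4 at 1.56 and 1.73 TPM and Hoxd4 at 0.81 and 0.77 TPM. Hoxa4 and Hoxb4 changed places between libraries, at log2 -0.06 ± 0.46 for Hoxb4 over Hoxa4, and did not differ beyond their spread. Group 5 was the highest. Hoxb5 (chr11:96303336-96306121), with a known role in enteric neural crest, stood at 24.5 and 22.5 TPM, and Hoxa5 (chr6:52201754-52204587), which acts in gut and lung mesenchyme, at 13.04 and 13.2 TPM. Hoxc5 was at 5.84 and 6.17 TPM. All 3 kept this order in both libraries, with Hoxb5 above Hoxc5 by log2 1.95 ± 0.14 and above Hoxa5 by log2 0.83 ± 0.10.

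Within group 6, Hoxb6 at 9.48 and 9.67 TPM stood above Hoxc6 at 2.74 and 3.4 TPM and Hoxa6 at 1.05 and 1.22 TPM. Its distance from Hoxa6 was log2 2.97 ± 0.12, and 3.64 in counts without length. Hoxb7 at 8.58 and 9.63 TPM and Hoxa7 at 8.74 and 6.45 TPM overlapped, and Hoxa7 was the higher of the pair in replicate 1 only. In protein-coding transcripts Hoxb7 lay above Hoxa7 by log2 0.94, beyond the spread. In group 8, Hoxc8 at 3.84 and 4.21 TPM and Hoxd8 at 2.65 and 2.61 TPM exceeded Hoxb8 at 0.61 and 0.82 TPM, and Hoxb8 lay below Hoxc8 by log2 2.35 ± 0.17. Hoxb8 thus stood far below its cluster neighbour Hoxb7, and so did Hoxb9 at 1.06 and 0.84 TPM beyond it.

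Posterior Hox genes, paralogs 9 to 13, which pattern the hindgut, urogenital tract, limb and tail, were mostly low, and 6 of 16 were detected. Detected were 5 of 8 anterior and 13 of 15 central genes, and the background was 62.0% of protein-coding genes. Group 9 held Hoxa9 at 2.61 and 2.59 TPM, Hoxd9 at 2.12 and 1.55 TPM, and Hoxb9 and Hoxc9, the last at 0.42 and 0.65 TPM. Group 10 was the highest of this zone. Hoxa10 stood at 8.54 and 7.32 TPM, Hoxd10 at 3.78 and 3.16 TPM and Hoxc10 at 1.09 and 0.95 TPM, with Hoxa10 above Hoxc10 by log2 2.84 ± 0.03. As most of Hoxa10 was placed on a non-coding transcript, that distance was log2 1.19 in protein-coding transcripts. Beyond group 10 levels dropped: Hoxa11 was at 1.61 and 1.2 TPM, Hoxd11 at 0.98 and 0.59 TPM and Hoxd12 at 0.52 and 0.27 TPM, and Hoxc11 had 3 and 0 counts. In group 13 only Hoxb13 (chr11:96194316-96197447) was detected, at 4.39 and 1.64 TPM, beside Hoxa13 at 0.38 and 0.21 TPM and Hoxd13 at 0.27 and 0.16 TPM. The distance of Hoxb13 from Hoxa13, log2 2.86 ± 0.52, exceeded the spread here but not with posterior mean TPM (log2 1.94) or a pseudocount of 1 (log2 1.55). Hoxc12 and Hoxc13 had no count, which allows up to 0.109 and 0.113 TPM for Hoxc12 and up to 0.0432 and 0.0445 TPM for Hoxc13 (3 counts per library, counting error only).

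**Figure D2:**
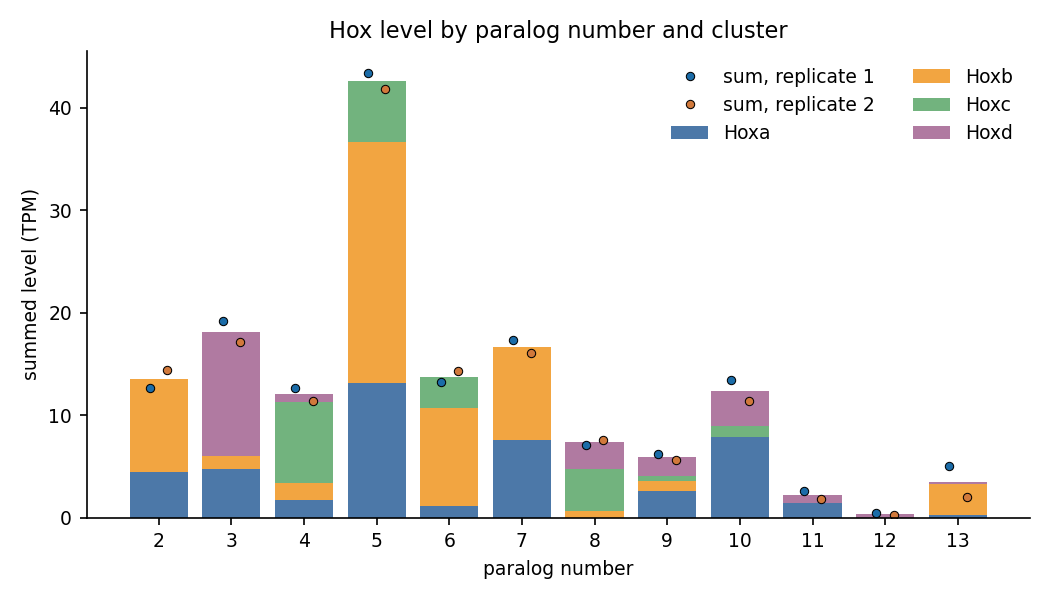
Summed level in TPM (vertical axis) of the Hox genes of each paralog number from 2 to 13 (horizontal axis). Bars are means stacked by cluster and points are the sums in the 2 libraries. Group 5 stands highest at 43.4 and 41.9 TPM, group 10 stands above its neighbours at 13.4 and 11.4 TPM, and the points of group 13, at 5.04 and 2.01 TPM, lie far apart for their height.

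In protein-coding transcripts group 10 summed to 7.71 and 6.22 TPM and group 8 to 6.42 and 6.85 TPM, so group 10 no longer stood above group 8 in both libraries. Group 5 stayed highest there, at 40.9 and 39.4 TPM.

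The clusters differed in how level followed position. Across the 9 Hoxc genes, paralog number and level ran opposite, with Spearman's rho of -0.962 and -0.949 in the 2 libraries. Across Hoxa rho was -0.118 and -0.145, across Hoxb 0.0909 and -0.0909, and across Hoxd -0.183 and -0.250. These are descriptions across genes of the same libraries, not tests. The highest gene took 34.9% of the Hoxc sum (Hoxc4), 28.7% of the Hoxa sum (Hoxa5), 40.0% of the Hoxb sum (Hoxb5) and 54.4% of the Hoxd sum (Hoxd3). Along the ranking of all 39 Hox genes, 11 of 38 neighbours did not overlap between libraries, and for 2 of them, Hoxb5 over Hoxa5 and Hoxd3 over Hoxb6, the deposited intervals were also apart in both libraries. The second of these steps turned in protein-coding transcripts, where Hoxd3 stood at 2.41 and 2.52 TPM and Hoxb6 at 9.48 and 9.68 TPM. From Hoxb6 down to Hoxa7, and from Hoxd9 down to Hoxb9, each gene overlapped the next in rank. The ends of these runs did not overlap. Hoxb6 stood at 9.48 and 9.67 TPM and Hoxa7 at 8.74 and 6.45 TPM. Hoxd9 stood at 2.12 and 1.55 TPM and Hoxb9 at 1.06 and 0.84 TPM. Of the 14 pairs of members compared here, 11 lay apart by more than 3 SD, and Hoxb4 with Hoxa4, Hoxb7 with Hoxa7 and Hoxa9 with Hoxd9 did not. The pairs were picked and no share over other gene pairs was computed, so this count only describes them.

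Among cofactors, MEIS genes stood above PBX genes, by a summed gene TPM of 3.60-fold and 3.55-fold. This ratio was smaller in protein-coding transcripts, where Meis1 kept a mean of 45.1% of its level, and in counts without length. Meis1 (chr11:18879817-19018985), which directs PBX and Hox proteins to joint sites, led at 72.5 and 65.05 TPM. Its paralogs Meis3, at 25.6 and 25.6 TPM, and Meis2, at 22.9 and 21.9 TPM, followed. Meis1 exceeded Meis2 by log2 1.61 ± 0.06, and by 0.76 in protein-coding transcripts. Meis2 lay below Meis3 by log2 0.19 ± 0.05, but this order turned in counts without length (log2 0.81). Among PBX genes, Pbx3, which acts in the nervous system, stood at 10.7 and 10.6 TPM. Pbx2, a widely expressed paralog, was at 5.89 and 4.76 TPM and Pbx4 at 2.47 and 2.29 TPM. Pbx3 exceeded Pbx4 by log2 2.12 ± 0.07, by 3.73 in protein-coding transcripts and by 3.93 in counts without length. No neighbours in the order of the 7 genes overlapped between libraries, and in 5 of the 6 steps the deposited intervals were apart in both. In gene TPM, only Meis1 and Meis3 stood above the highest Hox gene, Hoxb5, in both libraries. For Meis3 this turned in protein-coding transcripts, at 20.3 and 19.3 TPM against 23.5 and 21.4 TPM for Hoxb5. It also turned in counts without length, at 1208 and 1161 against 1324 and 1181, while Meis2 lay above Hoxb5 there at 2186 and 1986.

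The 2 pools differed in 1 member. A difference required 2-fold, deposited intervals apart and a mean count of at least 100, which 26 of 46 members reached. Hoxb13, a marker of the hindgut and tail, was called: it had 272 and 99 counts and 4.39 and 1.64 TPM, a log2 ratio of -1.37. The background was 0.854% of 12885 genes, and 2.35% with 1.5-fold, where Hoxb13 was again the only member. Meis1 also had intervals apart, but its levels differed by less than 1.5-fold.

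Posterior genes as a group lay lower in replicate 2. Of 16, 13 reached a mean count of 10, and 12 of these were lower there, Hoxc9 being the exception, against a background of 52.5% of 15500 genes. Their median log2 ratio of replicate 2 to replicate 1 was -0.40, against -0.01 over all genes. With a mean count of at least 100, 5 of 5 were lower with a median of -0.25, and of -0.24 without Hoxb13. Of these 5, Hoxa9 hardly differed, at 2.61 and 2.59 TPM. The background at this minimum was 6837 of 12885 genes lower in replicate 2. Apart from Hoxb13, intervals overlapped for every posterior gene, so no difference of these single genes was detectable at this depth. Anterior genes were lower in 3 of 6 and central genes in 6 of 15. By cluster, Hoxd genes were lower in 8 of 8, Hoxa in 8 of 11, Hoxb in 3 of 9 and Hoxc in 2 of 6. All 7 cofactors were lower too, with a median of only -0.07. Members of 1 library share its dissection and preparation, so these counts are descriptions of 2 pools.

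**Figure D3:**
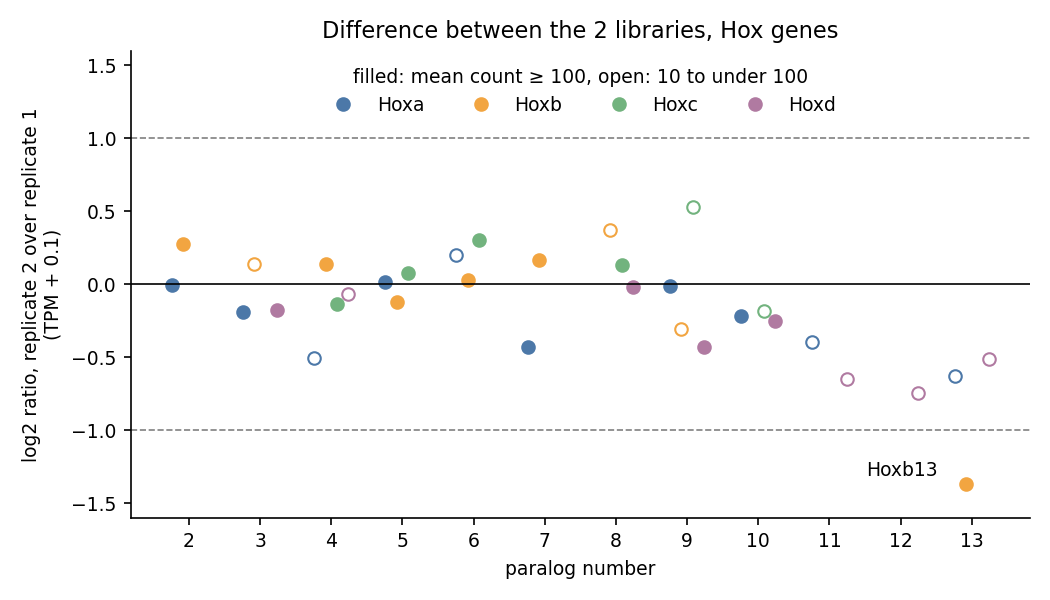
Log2 ratio of replicate 2 to replicate 1 (vertical axis, TPM + 0.1) against paralog number for 33 Hox genes with a mean count of at least 10, coloured by cluster. The solid line marks no difference and dashed lines 2-fold. Points of paralogs 9 to 13 lie below 0 except Hoxc9, and Hoxb13 alone lies beyond 2-fold.

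Markers of neighbouring tissues were read beside this difference. Of 3 markers of hindgut and colon epithelium, 2 were detected, and the 3 summed to 40.5 and 38.1 TPM. B4galnt2 stood at 37.8 and 35.6 TPM and Car1 at 0.84 and 0.19 TPM (27 and 6 counts). Of the 2 markers with a mean count of at least 100, 1 was lower in replicate 2 and 1 was not, so the list had no common direction. Summed levels in replicate 1 and replicate 2 were 10.2 and 7.94 TPM for 7 markers of kidney and urogenital tract, of which Pax2 and Emx2 had 1 and 0 counts and Umod none. Both markers of this list with a mean count of at least 100 were lower in replicate 2, Upk1a at 6.86 and 5.5 TPM and Nphs1 at 1.79 and 0.8 TPM, with a median log2 ratio of -0.69. Their counts were 244 and 190 for Upk1a and 129 and 93.93 for Nphs1. Under that minimum, Upk2 was higher in replicate 2, at 0.66 and 0.86 TPM (15 and 19 counts). Pax8 stood at 0.84 and 0.78 TPM (29 and 35 counts). Summed levels were 6.65 and 6.90 TPM for 3 markers of bladder and squamous epithelium, 6.55 and 8.16 TPM for 5 of limb and body wall, 1.55 and 1.51 TPM for 4 of cartilage, and 1.83 and 1.86 TPM for 5 of spinal cord. Detected members numbered 1 of 7, 1 of 3, 2 of 5, 0 of 4 and 1 of 5. For stomach they were 1 of 5, with sums of 4.04 and 2.26 TPM. The background for the detection counts of all marker lists was 62.0% of protein-coding genes. Among other cell types of the gut, markers were detected for endothelium with 4 of 4 (91.7 and 94.8 TPM), mesothelium with 4 of 4 (89.8 and 100.03 TPM) and blood cells with 4 of 5 (35.0 and 39.1 TPM). Markers of enteric neurons and crest summed to 108.45 and 95.01 TPM, and 3 of 5 were lower in replicate 2, with a median log2 ratio of -0.21. For smooth muscle 3 of 5 were lower (median -0.02), for intestinal epithelium 2 of 5 (0.09), for gut mesenchyme 1 of 6 (0.09), for endothelium 1 of 4 (0.08), for blood cells 2 of 4 with a mean count of at least 100 (0.08) and for mesothelium 0 of 4 (0.24). At a mean count of at least 100, 6837 of 12885 protein-coding genes were lower in replicate 2, and lists this short are hard to tell from that share. The part of the cells named here in the posterior difference was not tested.

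Isoform estimates changed the picture for several members. All 156 member transcripts matched the annotation. Among the 23 members with at least 2 transcripts and a mean of at least 1 TPM, the most abundant transcript was the same in both libraries in 22, against 92.0% of 9808 genes, a like share. The exception was Pbx4, where 2 transcripts annotated for nonsense-mediated decay changed places. Hox genes had 82.7% ± 0.927 of their TPM in protein-coding transcripts and cofactors 64.5% ± 1.00, against 89.1% ± 0.391 over all protein-coding genes. In both libraries under 50% of the level was coding in 4 of the 23, Meis1, Hoxa10, Hoxd3 and Pbx4, against 9.25% of genes.

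For Hoxd3, Hoxd3-206 took 81.3% and 77.9% of the gene's level. It is a model of 1 exon of 2721 bases annotated as retained intron, and 90.0% of its bases lie on exons of coding Hoxd3 transcripts. Coding transcripts of Hoxd3 summed to 2.41 and 2.52 TPM. For Hoxa10, Hoxa10-203 took 63.0% and 68.9%, while Hoxa10-201 of the upstream promoter window took 21.1% and 16.5% and Hoxa10-202 of the downstream window took 12.1% and 12.3%. Hoxa10-203 starts downstream of both windows, at position 52233324 of chromosome 6, and 92.5% of its bases lie on exons of the coding transcripts. Reads in such shared bases can be placed on either kind of transcript, so these splits are estimates.

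Hoxd11 was different. Its upstream transcript Hoxd11-201 took 80.1% and 92.9% of a low level, 75.22 and 50.93 expected counts, and only 7.90% of its 3367 bases lie on exons of the coding transcript. Coding Hoxd11-202, from the window with the joint PBX and Hox letters, had 5.78 and 1.20 expected counts. This coding model is only 1111 bases long, and the gene has 1008 coding bases, of which Hoxd11-201 covers 23.1%. Reads of a coding RNA that runs beyond the model could be placed on Hoxd11-201, so this split is an estimate too. For Meis1, Meis1-203 took 44.9% and 42.3%, with 98.7% of its bases on coding exons, and coding transcripts summed to 31.8 and 30.1 TPM. Hoxa7-205, annotated for nonsense-mediated decay, took 41.1% and 33.4% of Hoxa7. By contrast Hoxb5-201, which is coding, took 95.7% and 95.3% of Hoxb5, and Meis3-201 took 56.1% and 54.7% of Meis3. Counted in coding transcripts alone, the Hoxd share of the Hox sum was 9.53% in place of 14.9%, and the Hoxb share 45.9% in place of 39.4%.

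**Figure D4:**
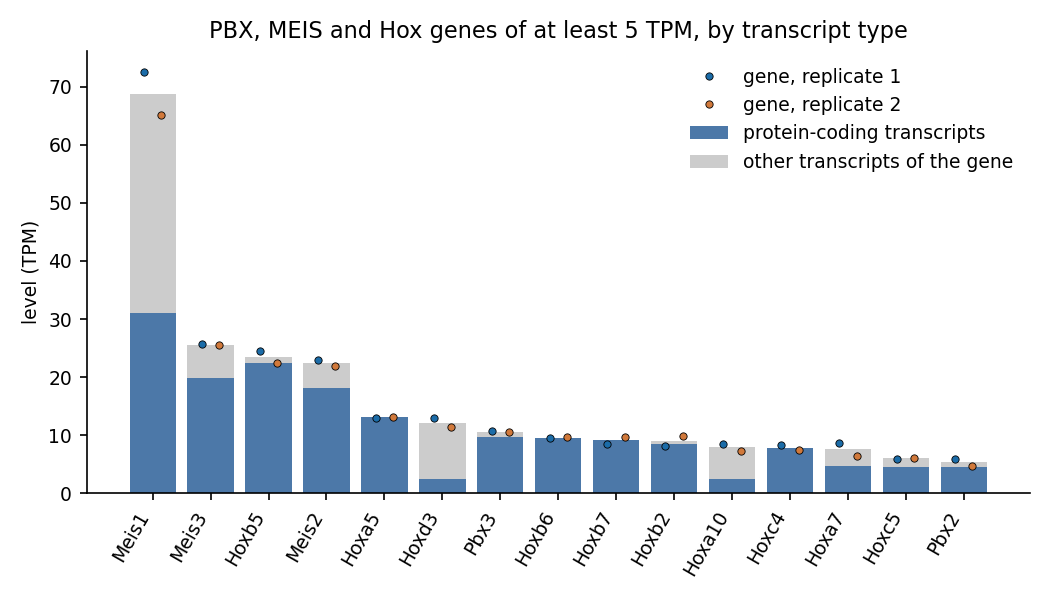
Level in TPM (vertical axis) of 15 members of at least 5 TPM, ordered by level. Bars are means split into protein-coding (blue) and other transcripts (grey), and points are gene levels in the 2 libraries. Grey fills over 50% of the bars of Meis1, Hoxd3 and Hoxa10.

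Non-coding genes within the clusters numbered 42, of which 14 were detected, against a background of 6.21% of 20988 genes that are not protein-coding. Hotairm1, an antisense RNA at the 3′ end of the Hoxa cluster, was the highest at 16.3 and 17.4 TPM. Hoxaas3, antisense to several Hoxa genes from Hoxa3 to Hoxa7, stood at 8.25 and 6.1 TPM. Gm27477, a short RNA gene beside Hotairm1, was listed at 9.27 and 4.77 TPM, but on only 12 and 6 counts. Hotair, the antisense RNA of the posterior Hoxc genes, had 0 and 1 counts. Exons of 18 members overlap another gene, 11 of them on the opposite strand and 11 on the same strand, with some on both. The share of exon bases was 52.9% for Hoxb3 with Hoxb3os, 35.0% for Hoxa11 with Hoxa11os, and 53.1% for Hoxd3 with Gm28230 on the same strand. The sources used here do not say whether strand was kept, so levels of pairs on opposite strands are uncertain. Levels of pairs on the same strand are uncertain in either case, since strand cannot tell their shared bases apart.

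Genes that act on Hox genes were read as lists, and none of their members was called between pools by the 2-fold rule above. The mean count of at least 100 was reached by 12 of 16 retinoic acid genes and 3 of 6 ParaHox and CDX genes. It was also reached by 5 of 11 other TALE genes, all 11 Trithorax genes and all 16 Polycomb genes. The background was 0.854% of 12885 genes, so no call in lists this short says little about them. Of 16 genes of the retinoic acid pathway, which switches on 3′ Hox genes, 13 were detected, against 62.0% of protein-coding genes. Dhrs3, which turns retinal back to retinol, led at 104.15 and 113.13 TPM, and Aldh1a1, which makes retinoic acid, followed at 74.9 and 72.7 TPM. The degrading enzyme Cyp26c1 was lowest with 1 and 0 counts. Of 6 ParaHox and CDX genes, Cdx1 at 66.7 and 81.5 TPM, Cdx2 at 35.99 and 39.4 TPM and Pdx1 at 2.35 and 1.8 TPM were detected. CDX proteins set intestinal identity and act on Hox genes. Cdx4 had 1 and 0 counts, and Gsx1 and Gsx2 none. Relatives of the cofactors in the TALE class were detected in 5 of 11, led by the repressors Tgif1 at 37.2 and 36.7 TPM and Tgif2 at 24.4 and 24.1 TPM, and Irx5 had no count.

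All 11 genes of a list of Trithorax and related regulators, which help keep Hox genes active, were detected. They ran from Dpy30 at 173.31 and 152.09 TPM and Ash2l at 64.5 and 62.2 TPM to Kmt2a at 3.66 and 4.16 TPM. All 16 Polycomb genes, which keep Hox genes silent, were detected too. These ran from Mtf2 at 60.1 and 55.8 TPM and Rnf2 at 50.6 and 48.3 TPM to Cbx7 at 3.17 and 4.08 TPM. The background for both lists was 62.0% of protein-coding genes. Median log2 ratios of replicate 2 to replicate 1 were -0.02 for the retinoic acid list, 0.13 for ParaHox and CDX, 0.09 for other TALE genes, -0.02 for Trithorax and 0.05 for Polycomb, beside -0.01 over all genes tested.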

How the data were processed

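Total RNA over 200 nt (mirVana extraction, ERCC spike-ins, 10 ng per library, per the labels) was quantified by the authors on mm10 with GENCODE M4, per the text deposited with the files. No source used here names the aligner or quantifier, or says whether strand was kept. Expected counts, as deposited, are reads estimated for each gene or transcript, with no normalisation. The deposited TPM values divide them by effective length (length minus 99) and scale each library to the same total. The percent values deposited for transcripts are shares of the gene's level. Interval bounds and posterior means of TPM, read as a signal on the TPM scale, are also as the authors deposited them, and their level is not stated.

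Of 43346 gene identifiers, 42462 matched GENCODE M21, which gave symbols, types and coordinates. Means, SDs, shares and log2 ratios (pseudocount 0.1) were computed in Python 3.11.15 with pandas 2.3.3 and numpy 2.4.6. A pair counted as apart when its mean log2 ratio exceeded 3 times its SD. Alternatives were other minimums, pseudocounts, posterior means, counts without length, TMM (edgeR 4.0.16) and DESeq2 1.42.0 size factors in R 4.3.3, computed from expected counts rounded to whole numbers, and each library left out. Coding-only TPM, left-out libraries for pairs and the median without Hoxb13 were chosen after seeing the data. Named were the members, except a few that are not reported here, the 2 highest and lowest genes of the pathway lists with all of the lists of 6 or fewer, the 3 highest non-coding genes of the clusters, and major transcripts. Marker genes, Hotair and the promoter, motif and miRNA comparisons were added after values were seen, and marker lists are given as sums with few names. Members and lists were chosen with earlier results of these data known.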

Additional observations from a re-analysis of the deposited data

How the results depend on the processing

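No paired analysis was possible because no second group exists to pair with. Counts of detected Hox genes (17 to 34 over all settings) and cofactors (6 to 7), of pairs apart (9 to 12) and of members differing between pools (1 in every setting run) stayed within 1.5 times the reported values. In counts without length the central share was 57.97%, the anterior 24.7%, Hoxa 28.8%, Hoxb 36.2% and Hoxd 19.0%. In coding transcripts they were 69.2%, 16.4%, 28.6%, 45.9% and 9.53%. The log2 ratio of cofactors to Hox was 0.026 with posterior means, 0.63 in counts, -0.36 in coding transcripts and between -0.0061 and 0.0059 with 1 library left out. Orders that turned were Hoxb4 over Hoxa4 (log2 0.63 in counts, from -0.38 to 0.27 with a library left out), Hoxb7 over Hoxa7 (from -0.026 to 0.57 with a library left out) and Meis2 over Meis3 (0.81 in counts). In coding transcripts Hoxd3 also fell below Hoxb6 and Meis3 below Hoxb5. Meis3 fell below Hoxb5 in counts without length too. A pseudocount of 1 moved Hoxd3 over Hoxb3 to 2.55, Hoxb6 over Hoxa6 to 2.31, Hoxb8 over Hoxc8 to -1.55 and Hoxa10 over Hoxc10 to 2.14, each in the same direction. The anterior median between pools was 0.067 with a count minimum of 10, in place of -0.09. The causes were not tested. With 2 libraries, depth limits what can be said of Hox genes under about 100 counts.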
